A study of Mus musculus with 4 samples.

Results

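Ass1, Asl, Arg1, Arg2, Gatm and Gamt, 6 of the 32285 genes counted, encode enzymes of arginine and creatine metabolism and were followed across the cell types of mouse testicular organoids (TOs) and mouse testes. The set was chosen with the data in view: Ass1 had been seen to lie far lower in Leydig cells of TOs than of testes, and the other 5 enzymes act on either side of that step. The Leydig values below are therefore a description, given without a test, whereas the Sertoli cell, macrophage and other comparisons were tested.

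Single-cell RNA was captured with the 10x Genomics Chromium 3′ chemistry from unsorted cells in 4 libraries, 2 of TOs and 2 of testes. TOs were spheres that reassembled from dissociated testis cells of newborn ICR mice, were embedded in extracellular matrix and were kept in a medium with serum replacement, hormones and antioxidants. The series describes TOs and testes alike as 28 days old and the study's methods give the same day for TOs, while the deposited dissociation protocol names TOs of day 21. In the study the days of TOs are days of culture, begun from pups already some days old. Testes are dated by the age of the mouse, so the groups were not matched in time from birth. TOs have no blood supply, and the study's methods state that the organoids came from 2 separate batches. No allele or sort separated the groups, while the hormones and antioxidants of the medium were given to TOs only.

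Arginine is built from citrulline and aspartate in a pair of steps, the joining by argininosuccinate synthase (Ass1) and the splitting of the product by argininosuccinate lyase (Asl). Arginases (Arg1 in the cytosol, Arg2 in mitochondria) break arginine into urea and ornithine, and glycine amidinotransferase (Gatm) instead moves its amidino group to glycine, after which guanidinoacetate methyltransferase (Gamt) adds a methyl group to make creatine. Leydig cells are the steroid-making cells between the tubules, Sertoli cells nurse the germ cells inside them, and macrophages are known for using arginine through arginases or nitric oxide synthases.

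The sequences before the starts of Ass1, Gatm and Gamt are shown because the results turn on the opposite distribution of Ass1 and Gatm, and on Gamt, which was found in both cell types. They come from RefSeq on build GRCm38.p6, run 5′ to 3′ along the strand of the gene, and end where GENCODE vM21 begins the gene, so 63 of the 250 bases for Ass1 and 26 for Gatm were left off. Capitals mark a CACGTG E-box, a GC box (GGGCGG or its reverse CCGCCC) or a CCAAT box (CCAAT or its reverse ATTGG). The Ass1 window lay at chr2:31470020-31470206 (plus strand), the Gatm window at chr2:122611304-122611527 (minus strand) and the Gamt window at chr10:80261013-80261262 (minus strand). The 30 bases around the Ass1 E-box, at chr2:31470222-31470251, fall inside the first exon that GENCODE draws and are given on a line of their own.
Ass1: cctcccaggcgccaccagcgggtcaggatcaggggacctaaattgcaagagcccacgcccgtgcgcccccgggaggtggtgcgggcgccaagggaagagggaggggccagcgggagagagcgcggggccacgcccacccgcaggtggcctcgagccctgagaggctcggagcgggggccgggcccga
Ass1 E-box: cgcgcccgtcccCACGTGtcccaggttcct
Gatm: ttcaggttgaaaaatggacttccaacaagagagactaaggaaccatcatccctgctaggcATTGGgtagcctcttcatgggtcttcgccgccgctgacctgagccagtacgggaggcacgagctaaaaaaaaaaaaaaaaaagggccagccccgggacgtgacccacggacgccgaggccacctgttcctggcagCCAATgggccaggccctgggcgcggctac
Gamt: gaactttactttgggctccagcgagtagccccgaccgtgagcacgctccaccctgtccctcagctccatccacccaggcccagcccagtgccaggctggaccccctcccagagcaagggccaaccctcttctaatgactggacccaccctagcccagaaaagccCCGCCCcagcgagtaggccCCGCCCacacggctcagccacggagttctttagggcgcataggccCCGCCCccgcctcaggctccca

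Over the full 250 bases, Ass1 held an E-box 36 bases and a GC box 63 bases before the RefSeq start, Gamt held 3 GC boxes at 86, 67 and 22 bases, and Gatm held 2 CCAAT boxes at 190 and 55 bases. Both strands were searched. Of 32851 RefSeq promoters of that length, 6.02% held CACGTG, 32.7% a GC box and 33.8% a CCAAT box. The nuclear receptor half-site AGGTCA, present in 14.0% of all promoters, was found in Gatm 156 bases before the start, and TATAA, present in 22.8%, in none of these 3. The share of G and C was 75.6% for Ass1, 59.2% for Gatm and 66.8% for Gamt, against a median of 52.4%. These matches describe letters only.

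On GRCm38, Ass1 (ENSMUSG00000076441) spans chr2:31470207-31520672 on the plus strand, Asl (ENSMUSG00000025533) chr5:130011258-130029247 on the minus strand and Arg1 (ENSMUSG00000019987) chr10:24915221-24927484 on the minus strand. Arg2 (ENSMUSG00000021125) lies at chr12:79130777-79156301 on the plus strand and overlaps Vti1b and Gm48780 on the opposite strand, and Gatm (ENSMUSG00000027199) and Gamt (ENSMUSG00000020150) lie on the minus strand at chr2:122594467-122611303 and chr10:80258151-80261012.

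The libraries held 74988295 to 119966959 unique molecular identifiers (UMIs, each counting 1 captured RNA molecule), and 8713 to 9867 cells were kept in each. Median UMIs per cell were 5479.5 and 7561 in TOs and 2549 and 3271 in testes, and median mitochondrial shares were 3.37% and 3.38% against 1.18% and 0.810%. Between 30 and 55 barcodes were shared by any pair of libraries. Cells were clustered and named from marker genes only, so every name below means cells with those markers. Leydig cells numbered 1635 and 1483 in TOs and 545 and 325 in testes, Sertoli cells 1564 and 740 against 429 and 198, and macrophages 270 and 694 against 231 and 147. Cluster 22, which had been named endothelial, went against that name in TOs, where Pecam1 was at 0 in both libraries, and it is called by its number. RNA of germ cells found in other cell types differed between the groups: the 8 spermatid markers summed to 4.18 and 5.34 CPM (counts of UMIs scaled to a total of 1000000) in TO Sertoli cells and to 1765 and 2561 CPM in testis Sertoli cells, and all 8 were lower in TOs in Leydig cells, Sertoli cells and macrophages. Whether this was free RNA was not tested. Levels below are CPM, meaning UMIs of a gene per 1000000 UMIs of all genes summed over the cells of a type in a library, listed as TO replicates 1 and 2 and then testis replicates 1 and 2.

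In testes Ass1 was a Leydig cell gene, and in TOs it was found mostly in stromal and peritubular myoid cells. In Leydig cells, Ass1 lay at 16.5 and 7.88 CPM in TOs and at 2622 and 1443 CPM in testes. Both TO libraries were low and both testis libraries high, with no overlap. The means were 12.2 ± 6.10 CPM (SD, n = 2) and 2032 ± 834 CPM (SD, n = 2), a 167-fold lower level in TOs, and the fold change fitted by edgeR, a count model of the UMI sums of the 4 libraries, was -7.47 on the log2 scale (SE 0.59). In that comparison 2.24% of the 12104 genes tested were called, meaning an adjusted p below 0.01 together with a log2 fold change over 1 in size (0.711% higher and 1.53% lower in TOs), and 31.4% of genes lay lower in TOs with no overlap; the Leydig contrast chose Ass1, so nothing is read from either share.

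The difference was present cell by cell. An Ass1 UMI was found in 12.7% (95% Clopper-Pearson interval 11.1 to 14.4) and 6.61% (5.40 to 7.99) of TO Leydig cells and in 97.1% (95.3 to 98.3) and 96% (93.3 to 97.9) of testis Leydig cells. Thinned to 1500 UMIs per cell, the shares were 2.14%, 1.21%, 90.1% and 78.8%. Median depths before thinning were 10896 and 12531 UMIs in TO and 6130 and 9796 UMIs in testis Leydig cells. Spermatid-like cells of the testes, which served as the background, had a UMI in 1.83% and 1.14% of cells at medians of 2419 and 3870 UMIs, or in 0.719% and 0.496% once thinned. In TO spermatid-like cells 0 of 27 and 0 of 25 cells had one. The Clopper-Pearson intervals allow shares of cells with a UMI of up to 12.8% and 13.7%, which does not bound expression.

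The median Leydig cell held 15 and 12 Ass1 UMIs in the testes, with quartiles of 8 to 23 and 7 to 21, and 0 in both TO libraries. At least 5 UMIs were found in 473 (86.8%) and 269 (82.8%) of the testis Leydig cells and in 3 cells of each TO library, where the highest cell held 10 and 7. At the other end, 16 and 13 testis Leydig cells had no Ass1 UMI. Few TO cells reached the range in which most testis cells lay.

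**Figure D1:**
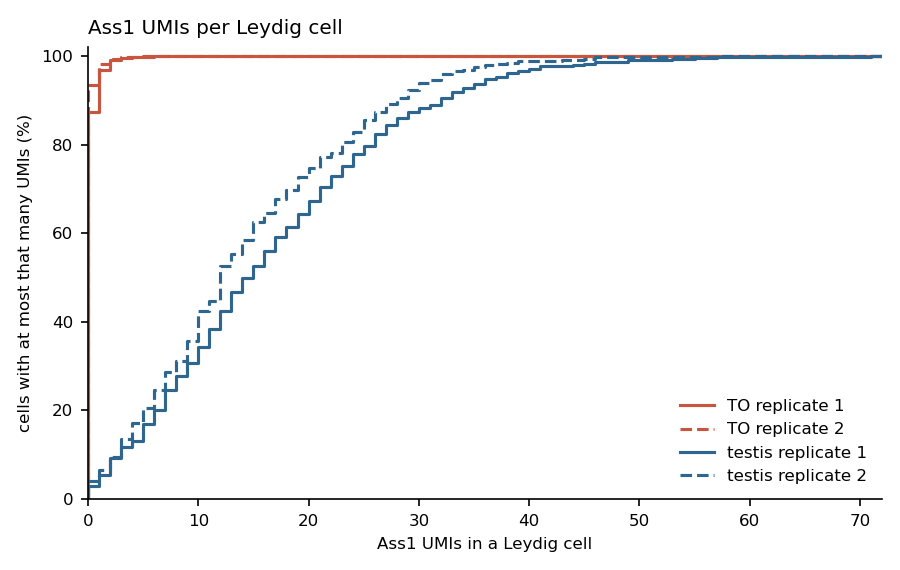
Cumulative share of Leydig cells (%, vertical axis) with at most a given number of Ass1 UMIs (horizontal axis), with 1 line per library. The TO lines (red) are near the top from the first step, with no UMI in 1427 of 1635 and 1385 of 1483 cells, whereas the testis lines (blue) climb slowly to maxima of 71 and 57 UMIs.

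The cells compared were Leydig cells in both groups by their markers, but not at the same levels. The 5 Leydig markers summed to 9012 and 3463 CPM in TOs and 12394 and 17696 CPM in testes, with none at 0. Hsd3b1, a steroid dehydrogenase, was higher in TOs (2892 and 1907 against 1512 and 1022 CPM), while Cyp17a1, the enzyme that leads to androgens, was lower (1147.5 and 83.6 against 3930 and 11339 CPM). Star, which brings cholesterol into mitochondria, was lower too (37.2 and 11.2 against 405 and 736 CPM), as was Cyp11a1 (2685 and 1314 against 3171 and 2857 CPM), and Insl3 overlapped between the groups. In TOs Star did not set Leydig cells apart, since Sertoli cluster 5 held 35.1 and 30.4 CPM of it. The part of the marker differences in the Ass1 difference was not tested. Leydig cells came from 2 clusters, of which cluster 20 was held almost wholly by TOs (336 and 148 cells against 2 and 4). In cluster 2 alone Ass1 was at 20.4 and 8.37 CPM in TOs and 2628 and 1452 CPM in testes, so a large difference was present there too. Insl3 in that cluster was at 1880 and 132 CPM in TOs and 3366 and 1735 CPM in testes. Its overlap there thus came from TO replicate 1, while TO replicate 2 lay far below both testis libraries.

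Asl, the next enzyme on the same route, did not share this pattern. Its Leydig levels were 68.0 and 47.4 CPM in TOs and 63.1 and 84.1 CPM in testes, so that the groups overlapped. The log2 fold change was -0.46 (SE 0.29). An Asl UMI was found in 49.1%, 43.0%, 31.7% and 53.5% of Leydig cells, or 9.62%, 6.95%, 8.99% and 10.5% once thinned.

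Of the creatine enzymes, Gamt was detected in most Leydig cells of all 4 libraries and Gatm was not. Gamt lay at 176 and 207 CPM in TO and at 305 and 308 CPM in testis Leydig cells. The groups did not overlap, with means of 192 ± 21.99 and 307 ± 1.70 CPM (SD, n = 2 each) and a log2 fold change of -0.78 (SE 0.25). In Leydig cells 31.4% of genes lay lower in TOs with no overlap. Gatm lay at 32.2 and 20.9 CPM in TOs and at 5.26 and 4.06 CPM in testes, where 2.20% and 2.77% of Leydig cells had a UMI, about the share in testis spermatid-like cells (2.94% and 3.51%). The Gatm difference in Leydig cells was left out before adjustment because the other cells of the TO libraries held 497 CPM, 18.8 times the Leydig level, and the part of free RNA from those cells was not tested. Arginases were nearly absent: Arg1 had 6 UMIs in TO replicate 1 and 0 in the other 3 libraries, and Arg2 stayed at or below 0.625 CPM.

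Gatm was the enzyme of Sertoli cells. It lay at 1774 and 2269 CPM in TO Sertoli cells and at 1144 and 1685 CPM in testis Sertoli cells, and a UMI was found in 97.5%, 98.5%, 90.0% and 90.4% of them (88.0%, 93.0%, 76.9% and 82.8% after thinning). Both TO libraries were above both testis libraries, as for 33.2% of genes in Sertoli cells. The lower TO and the higher testis library lay close together. The means were 2021 ± 350 and 1414 ± 382 CPM (SD, n = 2 each), and the difference did not pass the test (log2 fold change 0.64, SE 0.25, adjusted p = 0.0785, edgeR quasi-likelihood test with Benjamini-Hochberg adjustment). None of the 4 members tested in Sertoli cells was called by edgeR, against 22% of the 12489 genes tested. DESeq2 called 0 of the 4 too, and 3 had an unadjusted p under 0.05 with edgeR.

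Gamt, which completes creatine, was also found in most Sertoli cells and did not separate the groups. Its levels were 229 and 277 CPM in TOs and 386 and 254 CPM in testes, with the 2 groups overlapping. The log2 fold change was -0.23 (SE 0.24, adjusted p = 0.489, edgeR). Without 1 library its direction turned, the range being -0.49 to 0.10.

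Asl was low in Sertoli cells and lay higher in TOs, at 15.02 and 12.7 CPM against 5.25 and 6.54 CPM, which were 219 and 95 UMIs against 13 and 8. The groups did not overlap, as for 33.2% of genes in that direction in Sertoli cells. The other cells held 70.5 CPM of Asl in TOs and 14.7 CPM in testes. In TOs this was 4.95 times the Sertoli level, just under the 5 times at which a gene was left out. The part of RNA from those cells was not tested. The log2 fold change of 1.38 (SE 0.34) just missed the threshold with an adjusted p of 0.0145 (edgeR), and it passed in 2 of 17 alternatives, those with the replicate number as a block (1.39) and with genes of any count (1.54). Once cells were thinned, the shares with a UMI were 2.34% and 2.33% against 0.699% and 2.53%, which overlapped.

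Ass1 in Sertoli cells lay at 2.40 and 2.54 CPM in TOs and 19.4 and 11.4 CPM in testes. It was left out of the adjusted test because the other cells of the testis libraries held 166 CPM, 9.92 times the Sertoli level, and Leydig cells gave most of it. With no gene left out the log2 fold change of -2.58 passed the threshold (adjusted p = 0.00188, edgeR), and with the germ cell background subtracted it turned to 1.25. That setting took away, in the testis libraries only, the profile of all other cells, Leydig cells included. The spermatid markers set only the share taken away. Whether Sertoli cells differed in Ass1 of their own was not tested. Arg1 had 9 and 8 UMIs in TO and 7 and 4 in testis Sertoli cells (log2 fold change -1.77, SE 0.62, adjusted p = 0.0549, edgeR), and Arg2 was below the count filter with 0 to 7 UMIs per library. Hepatocytes use these enzymes for the urea cycle, and their markers stayed at or below 4.09 CPM in Sertoli cells and 2.04 CPM in Leydig cells.

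**Figure D2:**
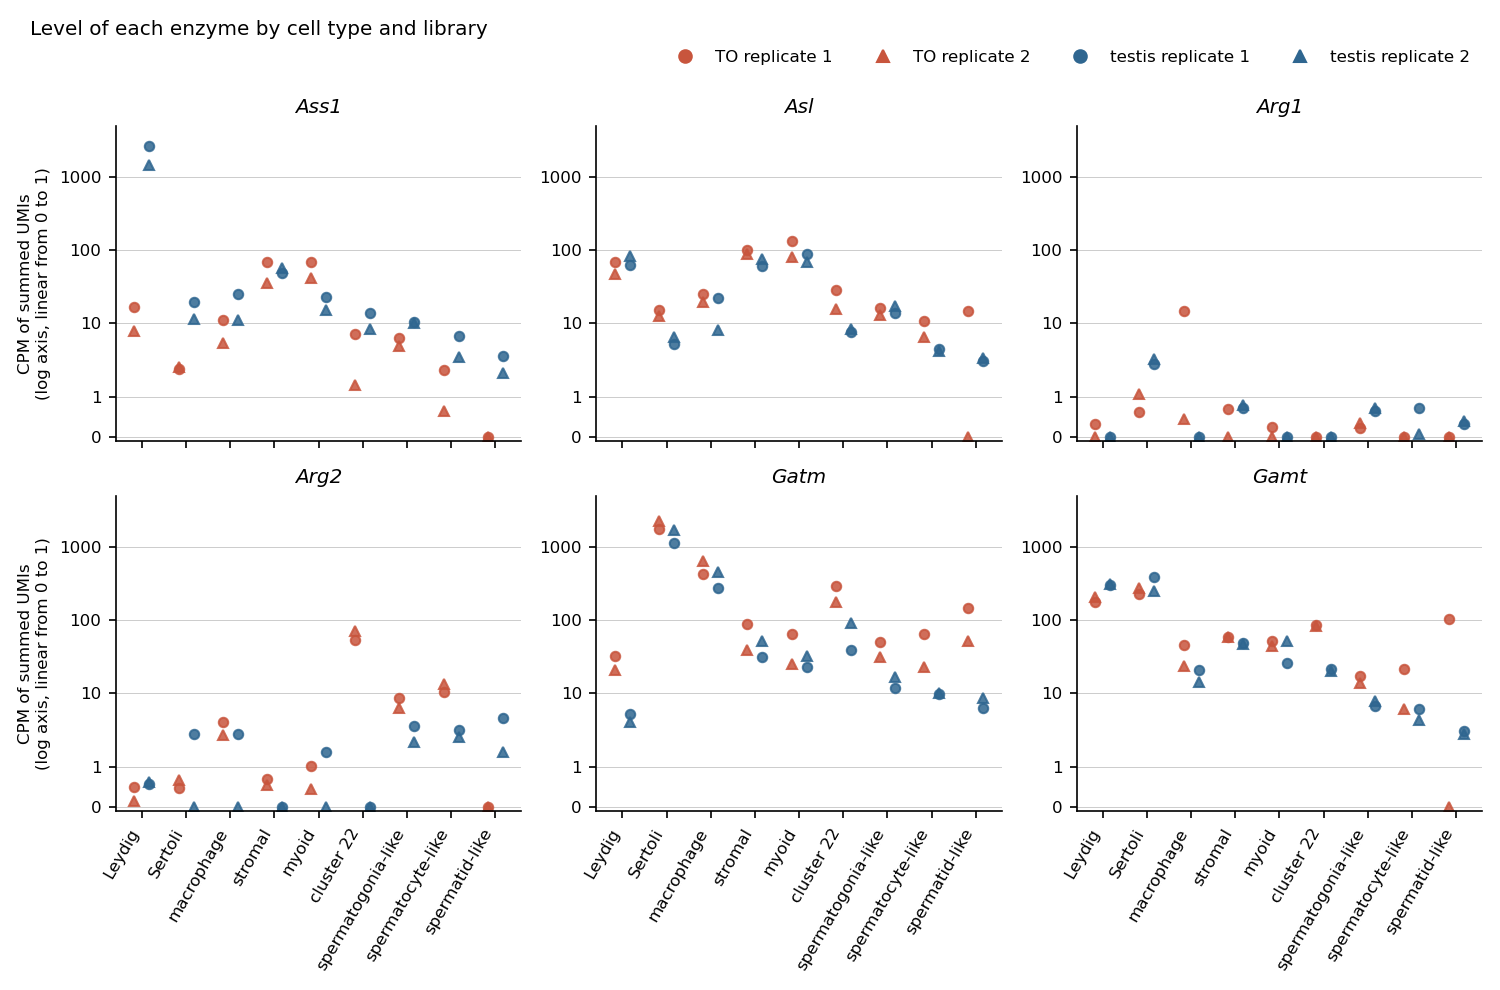
Level of each of the 6 enzymes (CPM of summed UMIs, log axis that is linear from 0 to 1) by cell type, with 1 point per library (red TO, blue testis, circles replicate 1 and triangles replicate 2). Ass1 separates the groups most in Leydig cells (7.88 to 16.5 against 1443 to 2622 CPM), while Gatm is highest in Sertoli cells of all 4 libraries.

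Macrophages were second to Sertoli cells for Gatm. They held 424 and 634 CPM in TOs and 275 and 461 CPM in testes, and the groups overlapped (means 529 ± 149 and 368 ± 131 CPM, SD, n = 2 each). A UMI was found in 84.1% and 91.6% of TO and in 51.9% and 76.2% of testis macrophages, or 45.7%, 57.0%, 33.3% and 46.3% once thinned. The 6 Sertoli markers summed to 297 and 114 CPM in TO and to 47.5 and 43.5 CPM in testis macrophages, whereas they summed to 4840 to 8163 CPM in Sertoli cells. In macrophages Gatm exceeded the summed Sertoli markers in every library, and in Sertoli cells the order was the reverse. The part of Sertoli cell RNA in the macrophage level was not tested. The log2 fold change of Gatm was 0.74 (SE 0.33, adjusted p = 0.145, edgeR).

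Gamt was low in macrophages, at 46.4 and 23.3 CPM in TOs and 21.0 and 14.5 CPM in testes. The other cells held 121 CPM of Gamt in TOs, 4.00 times the macrophage level, and 43.4 CPM in testes. The part of RNA from those cells was not tested. Every TO value was above every testis value, as for 21.3% of genes in macrophages, and the fold change did not pass the test (1.15 on the log2 scale, SE 0.46, adjusted p = 0.106, edgeR). Asl lay at 25.2 and 19.2 against 22.4 and 8.05 CPM (0.72, SE 0.49, adjusted p = 0.350, edgeR). None of the 3 members tested was called by edgeR or DESeq2, against 15.2% of 9894 genes, and 2 had an unadjusted p under 0.05.

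Arginases, by which macrophages are often classed, had few UMIs in them. Arg1 had 29 UMIs in TO replicate 1, of which 22 came from 1 cell, 2 UMIs in TO replicate 2 and none in 231 and 147 testis macrophages. For the testis macrophages the Clopper-Pearson intervals allow a share of cells with a UMI of up to 1.58% and 2.48%. Median depths were 6326.5 and 5986.5 UMIs per TO and 3073 and 4292 UMIs per testis macrophage, so low expression in the testis cells is not bounded. Arg2 had 8 and 12 UMIs against 2 and 0. Nos2, the inducible nitric oxide synthase that competes for the same arginine, was at 0 in macrophages of all 4 libraries. Ass1 was at 11.1 and 5.37 against 25.1 and 11.3 CPM and was left out of the test by the same rule as in Sertoli cells, with 162 CPM in the other testis cells. The 7 macrophage markers summed to 32593 and 28979 CPM in TOs and 12586 and 11839 CPM in testes, of which Lyz2 alone gave 27373 and 23063 against 5604 and 4832 CPM. Of the 7, Lyz2, Ptprc and Adgre1 were higher in TOs, C1qa (3281 and 3221 against 4512 and 4058 CPM) and Cd74 (136 and 586 against 694 and 1337 CPM) were lower, and the other 2 overlapped.

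Whether the TO difference was itself different between Sertoli cells and macrophages was tested with an interaction term and the library as a block. For Gatm the difference of the log2 fold changes was -0.05 (SE 0.29, adjusted p = 0.955, edgeR), for Asl it was 0.75 (SE 0.62, adjusted p = 0.530) and for Gamt it was -1.26 (SE 0.44, adjusted p = 0.0698). None of the 3 was called by edgeR or DESeq2, against 4.9% of 9996 genes (3.27% with the larger change in Sertoli cells and 1.63% with the smaller), and 1 had an unadjusted p under 0.05. Gamt was the nearest, with the sign of its fold change negative in Sertoli cells and positive in macrophages, where the part of Gamt RNA from other cells was not tested.

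Stromal and peritubular myoid cells were the main source of Ass1 in TOs. Stromal Ass1 lay at 69.3 and 36.0 CPM in TOs and 49.0 and 57.2 CPM in testes, so the groups overlapped, whereas 30.8% of genes in stromal cells lay higher and 37.8% lower in TOs with no overlap (log2 fold change 0.02, SE 0.31, adjusted p = 0.971, edgeR). None of the 3 members tested in stromal cells was called by edgeR or DESeq2, against 17.6% of 14267 genes (1.99% higher and 15.6% lower in TOs), and 1 had an unadjusted p under 0.05. In myoid cells Ass1 was at 69.2 and 41.2 CPM in TOs and 23.0 and 14.99 CPM in testes. Both TO libraries were above both testis libraries, the opposite direction to Leydig cells. It was left out of the adjusted test because the other testis cells held 166 CPM, and with no gene left out the log2 fold change of 1.49 (SE 0.33) had an adjusted p of 0.00508 (edgeR). After thinning, 9.75% and 5.90% of TO and 3.62% and 2.33% of testis myoid cells had a UMI.

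Myoid cells came from 2 clusters that the groups held unevenly. Cluster 1 held 2308 and 1732 TO and 479 and 288 testis cells, and cluster 19, with Tagln, Rgs5 and Notch3 among its leading genes, held 101 and 99 against 211 and 141. In cluster 1 alone Ass1 was at 69.5 and 42.2 CPM in TOs and 30.8 and 20.8 CPM in testes, still without overlap, as for 37.2% of genes in each direction in all myoid cells, and the log2 fold change was 1.09 (SE 0.33, not adjusted since the gene was left out). In cluster 19 Ass1 had 33 and 21 UMIs in TOs and 3 and 1 in testes. The 5 myoid markers, each lower in TO myoid cells, summed to 10892 and 7504 against 17806.5 and 18159 CPM, and 5 of the 6 stromal markers were higher, with sums of 4768 and 6522 against 2385 and 2112 CPM. Their part in the Ass1 difference was not tested.

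Asl stood first in the same cells in TOs, while in testes they overlapped Leydig cells. It lay at 99.6 and 87.4 against 60.5 and 74.4 CPM in stromal cells (0.52, SE 0.22, adjusted p = 0.122, edgeR) and at 134 and 81.6 against 87.2 and 68.1 CPM in myoid cells (0.44, SE 0.27, adjusted p = 0.230). Gamt lay between 47.8 and 59.7 CPM in stromal and between 25.7 and 52.0 CPM in myoid cells and was not called in either (adjusted p = 0.282 and 0.449, edgeR). In myoid cells 0 of the 2 members tested were called by edgeR or DESeq2, against 22.3% of 14342 genes (4.22% higher and 18.1% lower), and 0 had an unadjusted p under 0.05.

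**Figure D3:**
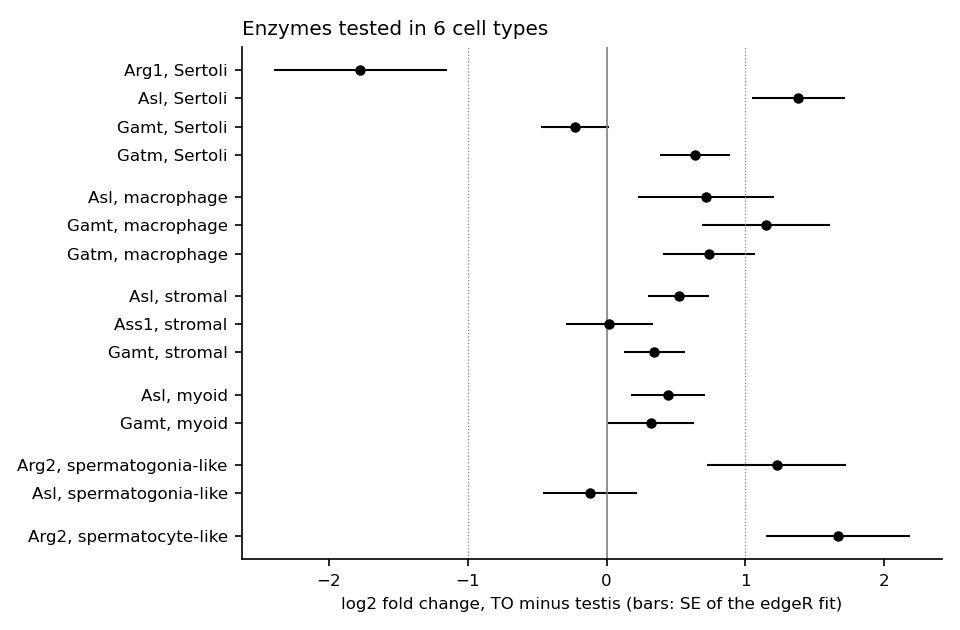
Log2 fold change (TO minus testis) of each enzyme that could be tested, by cell type, with bars for the SE of the edgeR fit and dotted lines at a log2 fold change of 1 in either direction. Leydig cells are not drawn because that contrast chose Ass1, and none of the 15 values plotted was called.

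The order of the cell types by Ass1 level was thus not the same in both groups. Among TO types, myoid (55.2 ± 19.8 CPM) and stromal cells (52.7 ± 23.5 CPM, SD, n = 2 each) stood first and overlapped, and both were above Leydig cells, which overlapped macrophages (8.23 ± 4.05 CPM). Among testis types, Leydig cells stood above stromal cells (53.1 ± 5.77 CPM), which stood above myoid cells (19.0 ± 5.67 CPM), and myoid cells, macrophages (18.2 ± 9.81 CPM) and Sertoli cells (15.4 ± 5.61 CPM) overlapped.

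Counting where the UMIs of a library came from gives the same picture with the numbers of cells included. Leydig cells gave 93.0% and 91.7% of the 9656 and 5035 Ass1 UMIs of the testis libraries and 14.7% and 9.45% of the 2000 and 1514 of the TO libraries. Stromal cells gave 39.6% and 51.3% and myoid cells 41.1% and 35.3% in TOs, against 0.704% and 1.45%, and 0.445% and 0.437%, in testes. Leydig cells were more numerous in the TO libraries than in the testis libraries.

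Asl UMIs were spread more evenly, with 27.8% and 21.1% from Leydig cells in TOs and 32.9% and 40.9% in testes. Gatm UMIs came mainly from Sertoli cells in all 4 libraries (87.4%, 78.4%, 82.5% and 71.4%), and macrophages gave 2.84%, 13.1%, 5.73% and 9.91%. Gamt UMIs were divided between Sertoli cells (41.3%, 26.0%, 41.0% and 19.2%) and Leydig cells (38.8%, 47.2%, 44.8% and 61.0%). In testis Leydig cells, then, Gamt was found in most cells while Gatm lay near the background.

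**Figure D4:**
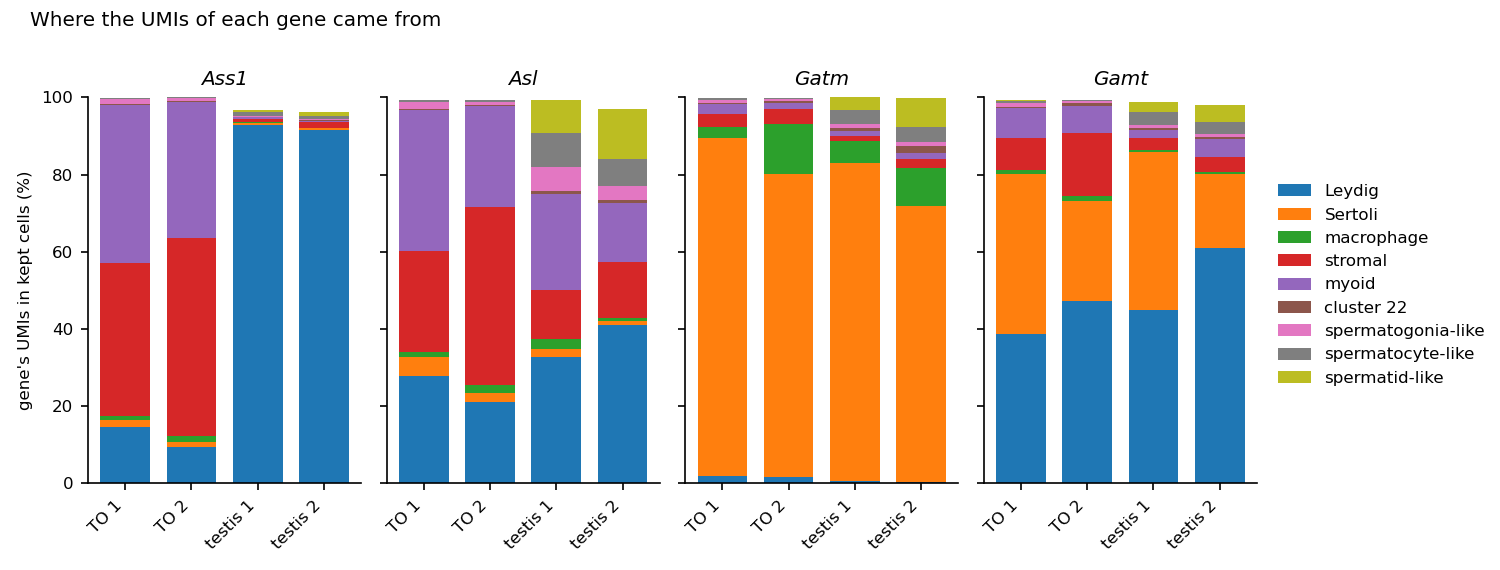
Share of the UMIs of Ass1, Asl, Gatm and Gamt (%, vertical axis) that came from each cell type in each library, with the remainder to 100% from cells left unnamed. Leydig cells (blue) fill 91.7% and 93.0% of the Ass1 bars of the testes and 14.7% and 9.45% of those of the TOs.

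Arg2 was highest in the TO cells of cluster 22, a small group led by Cldn5, Rmst and Wfdc2, where it had 23 and 49 UMIs (54.1 and 70.6 CPM) in TOs and none in testes. It was found in 17.5% (95% interval 9.05 to 29.1) and 32.5% (22.4 to 43.9) of 63 and 80 TO cells and in 0 of 132 and 0 of 87 testis cells. For the testis cells the same intervals allow a share of cells with a UMI of up to 2.76% and 4.15%. Median depths were 6813 and 8809.5 UMIs per TO cell and 4175 and 5426 UMIs per testis cell, so low expression in the testis cells is not bounded. For the ratio of the pooled TO over the pooled testis level, the exact 95% interval had a lower limit of 21.2, which covers counting error only. The 6 endothelial markers summed to 257 and 140 CPM in TOs and 2995 and 2380 CPM in testes, each of the 6 being lower in TOs, so the cluster did not hold the same cells in both groups and the values describe 2 kinds of cell. Gatm and Gamt were also higher in its TO cells (297 and 174 against 39.6 and 91.3 CPM, and 84.7 and 82.2 against 21.3 and 20.3 CPM), and so were the summed Sertoli markers (2563 and 1684 against 428 and 328 CPM). The part of these in the enzyme levels was not tested.

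In germ cells the levels were low. Arg2 lay at 8.7 and 6.2 against 3.6 and 2.2 CPM in spermatogonia-like cells (log2 fold change 1.23, SE 0.50, adjusted p = 0.152, edgeR) and at 10.5 and 13.6 against 3.2 and 2.6 CPM in spermatocyte-like cells (1.67, SE 0.52, adjusted p = 0.0132, edgeR). In spermatogonia-like cells none of the 2 members tested was called by edgeR or DESeq2, against 8.69% of 12076 genes (0.232% higher and 8.45% lower), and in spermatocyte-like cells the 1 tested was not, against 54.5% of 13245 genes (22.4% higher and 32.1% lower). Arg2 had an unadjusted p under 0.05 in both. Spermatocyte-like cells numbered 353 and 349 in TOs and 3301 and 3041 in testes, and a shift of stage within them cannot be told apart from a change at a given stage.

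The genes around these enzymes were taken from 7 lists with 51 genes in all, for citrulline and aspartate supply, arginine transport, nitric oxide, polyamines, proline, creatine use and the methyl donor of Gamt. In Sertoli cells 36 of them were tested, and 8 were called higher and 2 lower in TOs, against 7.45% and 14.6% of all genes tested. The median log2 fold change of the 36 was -0.01, beside 0.07 for all genes. The genes higher in TOs were spread over 6 of the 7 lists.

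Of these 8, the creatine transporter Slc6a8 had the largest rise, at 15.9 and 19.8 CPM in TOs against 2.83 and 0.818 CPM in testes (log2 fold change 3.17, SE 0.48, adjusted p = 0.00189, edgeR). Of the methyl supply, Ahcy, which clears the product that inhibits methyltransferases, rose (32.0 and 22.7 against 10.5 and 7.36 CPM, 1.67, adjusted p = 0.00429), and so did Mat2b, the regulatory subunit of S-adenosylmethionine synthetase (144 and 135 against 56.1 and 74.4 CPM, 1.23, adjusted p = 0.00159). All 3 were named because they were called higher on these libraries, so their lack of overlap adds nothing to the calls. Gamt itself overlapped.

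On the side of arginine, the cationic amino acid transporter Slc7a2 rose (41.2 and 38.8 against 19.8 and 14.7 CPM, log2 fold change 1.28, adjusted p = 0.00383, edgeR), as did the aspartate carrier Slc25a12 (20.9 and 22.05 against 8.48 and 2.45 CPM, 1.90, adjusted p = 0.00982). Got1, the cytosolic aspartate aminotransferase (125 and 138 against 63.0 and 69.5 CPM, 1.11), Oat, which turns ornithine toward proline and glutamate (505 and 517 against 274 and 240 CPM, 1.10), and Azin1, an inhibitor of antizyme (93.8 and 74.8 against 43.2 and 37.6 CPM, 1.16), were called as well. Slc6a8, Got1, Oat, Azin1 and Ckmt2 fell outside the naming rule in Sertoli cells and were named after their values were seen.

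The genes called lower were Oaz3, the antizyme of spermatids (0.412 and 0.267 against 111 and 69.5 CPM), and Ckmt2, a mitochondrial creatine kinase (0.0686 and 0 against 8.07 and 4.91 CPM). Both were higher in testis spermatid-like cells, at 494 and 1008 CPM for Oaz3 and 48.9 and 24.96 CPM for Ckmt2, and Oaz3 was also called lower in macrophages, stromal, myoid and both other germ cell types. The background subtraction took the profile of all other cells, scaled by the spermatid markers, from each testis library. After it, 0 of the neighbouring genes were called in Sertoli cells in either direction, and 1 gene in all was called in that cell type, against 2753 without subtraction. The 8 genes still lay higher in TOs after subtraction, by log2 fold changes of 0.81 for Oat, 0.91 for Got1, 1.02 for Mat2b, 1.06 for Slc7a2, 1.26 for Azin1, 1.44 for Ahcy, 1.97 for Slc25a12 and 3.02 for Slc6a8, with adjusted p of 0.0247 (Azin1) to 0.0926 (Slc25a12) by edgeR.

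**Figure D5:**
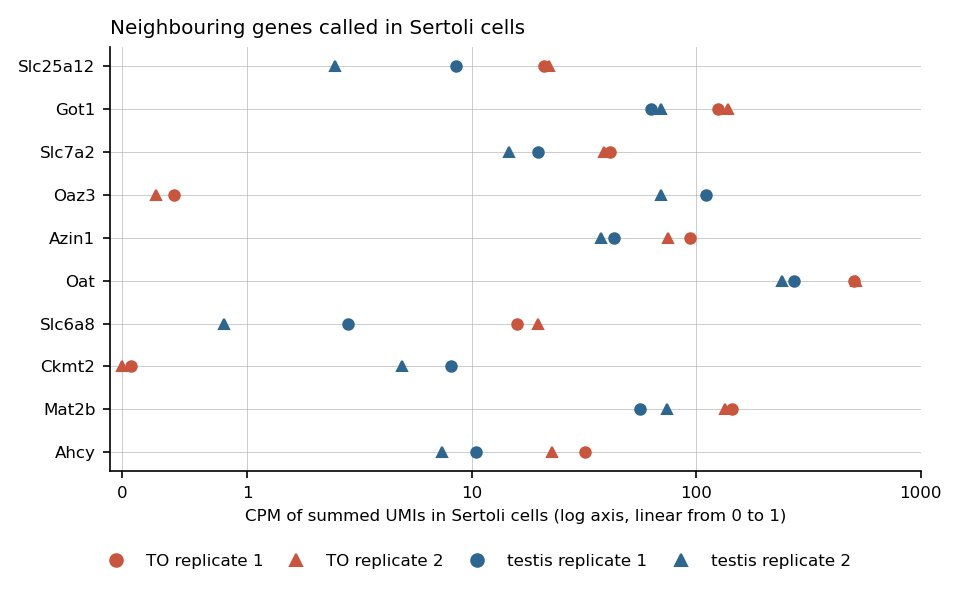
Level (CPM, log axis that is linear from 0 to 1) in Sertoli cells of the 10 neighbouring genes called there, with 1 point per library (red TO, blue testis). TO points lie to the right of testis points for 8 genes, as for Oat at 505 and 517 against 274 and 240 CPM, and far to the left for Oaz3 and Ckmt2.

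In macrophages 29 neighbouring genes were tested, of which 1 was called higher and 1 lower, against 2.69% and 12.5% of all genes. The higher was Sms, spermine synthase (93.8 and 65.1 against 33.5 and 19.3 CPM, log2 fold change 1.78, adjusted p = 0.00376, edgeR), and the lower was Oaz3. Ckb, the brain-type creatine kinase, lay at 528 and 364 against 169 and 267 CPM in macrophages and Slc6a8 at 16.6 and 17.7 against 5.59 and 0 CPM, neither of which was called (adjusted p = 0.0164 and 0.0230, edgeR).

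In Leydig cells 0 of 36 neighbouring genes tested were called in either direction by edgeR, with 12 at an unadjusted p under 0.05 and 4 called by DESeq2, and since this contrast chose Ass1 nothing is read from these counts. The arginine transporter Slc7a1 lay at 66.3 and 65.1 CPM in TOs and 87.0 and 92.8 CPM in testes, and Slc7a2 at 23.1 and 15.98 against 33.6 and 46.3 CPM. Both were lower in both TO libraries, as for 31.4% of genes in Leydig cells. Odc1, the first enzyme of polyamine synthesis, overlapped (160 and 112 against 133 and 199 CPM), as did Oat (323 and 259 against 272 and 362 CPM). For creatine use, Slc6a8 was at 4.21 and 4.46 against 1.17 and 0 CPM and Ckb at 3.54 and 2.04 against 3.21 and 1.56 CPM.

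In myoid cells 8 of the 39 neighbouring genes tested were called, 1 higher and 7 lower in TOs, which is near the 22.3% of all genes called (4.22% higher and 18.1% lower). In cluster 1 alone, chosen after seeing the data, 2 were called higher (Sat1 and Slc25a12) and 6 lower. Slc7a2 fell over all myoid cells (7.75 and 4.70 against 69.6 and 64.7 CPM, log2 fold change -3.46, adjusted p = 1.51e-05, edgeR), but most of its testis UMIs came from cluster 19 (224 and 205 CPM in testes, 45.3 and 16.3 CPM in TOs). In cluster 1 alone Slc7a2 lay at 5.998 and 3.94 CPM in TOs against 1.54 and 0.991 CPM in testes, on 2 and 1 testis UMIs, and was not called (1.92, adjusted p = 0.0838, edgeR). Among the genes called lower over all myoid cells were Nos1, the neuronal nitric oxide synthase (1.10 and 1.23 against 15.5 and 21.1 CPM, -3.96), and Ddah1, which breaks down the methylarginines that inhibit it (12.6 and 18.2 against 55.7 and 51.8 CPM, -1.81). Ckb (161 and 157 against 369 and 487 CPM, -1.45), Odc1 (65.3 and 41.9 against 149 and 113 CPM, -1.32), Oaz3 and Ckmt2 were the other 4, and these 6 genes besides Slc7a2 were also called lower in cluster 1 alone. Sat1, which acetylates polyamines, rose (150 and 107 against 34.8 and 47.0 CPM, 1.64, adjusted p = 0.000839, edgeR), and by 1.51 in cluster 1 alone (adjusted p = 0.00208).

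Among genes that reached 20 CPM in at least 2 of the 36 sums of cell type and library, the patterns most like that of Ass1 were those of Aqp2, Ren1, Ugt3a2, 4930481A15Rik and Slc29a1 (Pearson r of log2 levels 0.80, 0.76, 0.75, 0.74 and 0.73). Ren1, renin, also lay lower in TO Leydig cells (0.168 and 0.276 against 231 and 37.2 CPM), and Aqp2, a water channel, lay at 85.5 and 18.3 against 189 and 267 CPM. The 36 sums share 4 libraries and the germ cell background, and the correlations describe the likeness only.

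The genes most like the others differed from member to member. Those of Gatm were Fuca2, Myo7a, Mtm1, Vxn and Npl (0.87, 0.84, 0.84, 0.84 and 0.83), those of Gamt were Hadh, Bcat2, Prdx2, Ebp and Hist1h2bc (0.95, 0.95, 0.94, 0.93 and 0.92), those of Asl were Cped1, Rims4, Aebp1, Ndrg2 and Osr2 (0.92, 0.91, 0.91, 0.90 and 0.90), and those of Arg2 were Gpm6a, Acpp, Scg5, Rmst and Cdh1 (0.81, 0.81, 0.81, 0.79 and 0.79). No member was among the genes most like another. Arg1 did not reach 20 CPM in any sum.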

How the data were processed

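Per the study's methods the feature matrices came from Cell Ranger 7.1.0, on mm10 according to the submitters' processing notes, and what the authors deposited are raw UMI counts for each gene and barcode, before the study's filters on cells. The annotation version is not given in the sources used here, and 32235 of 32285 gene IDs were found in GENCODE vM21.

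Likely doublets were removed by Scrublet score (scanpy 1.11.5), at 0.8% per 1000 barcodes or 9.46% to 11.7% of a library, in place of the DoubletFinder of the study. The cells kept had 1000 to 5000 genes, no more than 20000 UMIs and under 10% mitochondrial UMIs; they were joined with Harmony on 30 components of 2000 variable genes, clustered (Leiden, resolution 1) and named from markers. UMIs were summed per library and cell type and tested with the edgeR 4.0.16 quasi-likelihood test (R 4.3.3, TMM, filterByExpr, no covariate), with Benjamini-Hochberg adjustment over all genes of the type. Genes at least 5 times higher in the other cells of either condition were left out before adjustment. P-values measure the spread between these 2 and 2 samples, and intervals of shares cover counting error only.

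The 6 members, the lists of neighbouring genes and the tests were chosen with earlier results of these data known. Named genes were the members, up to 4 neighbouring genes per direction and cell type with the largest fold among those called with at least 20 CPM in either condition, a fixed set of transporters and kinases in Leydig cells, and the 5 genes most like each member. Promoters came from RefSeq (GRCm38.p6), matched by symbol for 3 of the 6 members. Alternatives were DESeq2 1.42.0, library totals, other filters and clusterings, no doublet removal, subtraction of germ cell background, a replicate block and leaving out each library. The background subtracted, in testis libraries only, was the profile of all other cells, somatic cells included, at a share set by the spermatid markers.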

Additional observations from a re-analysis of the deposited data

Results flagged for a closer look

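For 4 enzymes every TO library lay on one side of every testis library in one cell type and on the other side in another. Each value is the log2 ratio of the mean TO over the mean testis CPM, with 1 added to both, in the first cell type minus that in the second. The difference was not tested in any of these pairs, and nor was its cause. Such separation was common: the groups did not overlap, TO higher or lower, in 36% and 31.4% of genes in Leydig cells, 33.2% and 41.2% in Sertoli cells, 21.3% and 38.9% in macrophages, 30.8% and 37.8% in stromal cells and 37.2% in each direction in myoid cells.

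For Ass1 the value was -8.76 for Leydig against peritubular myoid cells, from log2 ratios of -7.27 and 1.49, and the first of these belongs to the contrast that chose the gene. It was -3.73 for Sertoli against myoid cells (a ratio of -2.24 in Sertoli cells) and -2.55 for macrophages against myoid cells (-1.06 in macrophages). The other cells of the testis libraries held 166 CPM of Ass1 beside Sertoli cells and 162 CPM beside macrophages.

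For Gamt the value was -1.61 for Leydig cells against macrophages, from log2 ratios of -0.67 and 0.94, and -0.96 for Leydig against stromal cells (0.29 in stromal cells). For the arginases the counts were small. Arg1 gave -4.23 for Sertoli cells against macrophages (-1.14 and 3.09) and 3.47 for macrophages against stromal cells (-0.38 in stromal cells), where 22 of the 31 macrophage UMIs came from 1 cell. Arg2 gave -0.97 for Leydig against stromal cells (-0.27 and 0.70), on 12 TO and 4 testis UMIs in Leydig cells and 20 and 0 in stromal cells.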

How the results depend on the processing

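Ass1 in Leydig cells lay lower in TOs under all 18 settings, with log2 fold changes of -8.08 to -6.95; that without clusters held mainly by TOs and, for myoid cells, that with their largest cluster only were chosen after seeing the data. Of 489 alternative values for members in the tested cell types, 456 kept both direction and side of the threshold, 13 newly passed it and 20 turned direction. Asl in Sertoli cells passed with any count (1.54) and with the replicate block (1.39), Ass1 in Sertoli (-2.58) and myoid cells (1.49) with no gene left out, Ass1 in macrophages without doublet removal (-3.01), and Gamt between Sertoli cells and macrophages with any count (-1.65) and without TO replicate 2 (-1.91). Arg2 in spermatocyte-like cells passed with library totals (2.07), without TO replicate 1 (1.96), at resolution 2 (2.37) and with each cell named by its own marker score (2.03), and Gatm in spermatogonia-like (1.53) and spermatocyte-like cells (1.67) with no gene left out. Values that turned were, with germ cell background subtracted, Ass1 in Sertoli (1.25) and spermatogonia-like cells (2.18) and Asl in myoid cells (-0.15). Stromal Ass1, near 0 throughout, turned with library totals (-0.018), the replicate block (-0.032), no doublet removal (-0.018) and own marker scores (-0.58), Asl in spermatogonia-like cells with own marker scores (0.80) and the Gatm interaction without upper limits (0.031). Leaving out 1 library gave ranges across 0 for stromal Ass1 (-0.48 to 0.37), Gamt in Sertoli (-0.49 to 0.10, turned without testis replicate 1), myoid (-0.079 to 0.87) and spermatocyte-like cells (-0.043 to 1.5), Gatm in myoid cells (-0.037 to 1.25), Asl in spermatogonia-like cells (-0.27 to 0.045) and the interactions of Gatm (-0.16 to 0.074) and Asl (-0.38 to 1.36). The number of genes called moved by over 1.5 times as follows. Subtracting germ cell background left 1 gene in Sertoli cells, 0 in macrophages, stromal, myoid, spermatogonia-like and Leydig cells (in Leydig cells by edgeR), 760 in spermatocyte-like cells and 51 for the interaction. Leaving out genes from 2 times left 991 in Sertoli cells, 285 in macrophages, 885 in stromal, 1324 in myoid, 13 in spermatogonia-like and 14 in Leydig cells. Any count gave 3926 in stromal cells, 0 in Leydig cells (3606 at an unadjusted p under 0.05) and 765 for the interaction, no upper limits 1655 and 85 in stromal and Leydig cells, no gene left out 1791 and 2127 and own marker scores 2609 and 411 in spermatogonia-like and Leydig cells, DESeq2 963 in Leydig cells and 201 for the interaction, no doublet removal 909 and 828, library totals 154 in Leydig cells and the replicate block 37. Without 1 library the counts ran from 1834 to 2991 in Sertoli, 1111 to 2280 in stromal, 1726 to 3114 in myoid, 634 to 1488 in spermatogonia-like and 0 to 464 in Leydig cells and 249 to 778 for the interaction, the lowest each time without testis replicate 1. The Leydig count was 57 without testis replicate 2 and 464 without TO replicate 1, and the interaction count 312 without testis replicate 2 and 778 without TO replicate 1. The causes were not tested. Same-numbered libraries shared deviations with correlations of 0.03 to 0.17 over 2 pairs, and whether they shared a batch cannot be told from so few. The replicate block gave 3334 calls in Sertoli cells, 2018 in macrophages, 3228 in stromal, 3858 in myoid, 1353 in spermatogonia-like and 7324 in spermatocyte-like cells. Neighbouring genes called higher in Sertoli cells numbered 0 to 10 over the settings and those called lower 0 to 2. In the largest myoid cluster only, Slc7a2 turned from -3.46 to 1.92, while Ass1 was 1.09. With 2 libraries a group, small differences in Arg1 and Arg2, at a few UMIs a library, could not be detected at this depth.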

Other observations

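Slc25a13, the aspartate and glutamate carrier that feeds aspartate to argininosuccinate synthase, lay at 68.4 and 87.6 CPM in TO and at 7.01 and 16.6 CPM in testis Leydig cells, the opposite direction to Ass1, and was named after its values were seen. Both TO libraries were above both testis libraries, as for 36% of genes in Leydig cells, with a log2 fold change of 2.62 (SE 0.42). Sms, spermine synthase, lay at 10.5 and 16.2 against 4.38 and 2.50 CPM in the same cells (1.86, SE 0.47), in the direction in which it was called in macrophages. Both are given without a test, since the Leydig contrast chose Ass1.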
